A study of Homo sapiens with 4 samples.

Results

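The short arm of chromosome 8 (8p) held 7721 of 86207 H3K27ac peaks (8.96%) in MOLM13 cells treated with SNDX-50469 plus OTX015 and 4522 of 55852 peaks (8.10%) in cells treated with OTX015. All peaks of chromosome 8 that ended at or before 45.2 Mb on GRCh38 were taken. They were taken by position alone, but the choice was made with earlier results of these data known. MOLM13 is an established human acute myeloid leukaemia line that carries an MLL-AF9 fusion. In the co-treated group, cells received 500 nM of SNDX-50469, an inhibitor of the binding of Menin to MLL1, with 500 nM of OTX015, a pan-BET inhibitor, for 16 h. The cells it is set against received 500 nM of OTX015 alone for 16 h. Each treatment had 1 H3K27ac ChIP library of this single line, and the 2 input libraries, 1 per treatment, carried no values used here, so the differences below could not be checked against replicates or tested. Neither untreated cells nor cells given only SNDX-50469 were analysed here. The comparator is named from the sample labels, whereas the study's text describes its H3K27ac experiment with SNDX-50469 alone as comparator.

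Acetylation of lysine 27 on histone H3 marks nucleosomes at active promoters and enhancers, and BET proteins bind acetylated histones there and help RNA polymerase II into elongation. Menin tethers MLL1 and its fusions to chromatin. The short arm of chromosome 8 runs from the olfactory receptor and CSMD1 region at its tip, through the defensin clusters and the TRAIL receptor cluster, to the FGFR1 region and KAT6A beside the centromere. It is often lost in epithelial tumours, and parts of it near FGFR1 are gained in others. MOLM13 is known to carry additional copies of chromosome 8, but copy number was not measured here and its part in these values was not tested.

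Peaks covered more of the arm after co-treatment. Cover, the length lying under peaks, was 3.52 Mb (7.79% of the arm) with SNDX-50469 plus OTX015 and 1.82 Mb (4.03%) with OTX015, a ratio of 1.93. The number of peaks differed by a ratio of 1.71, and the median peak was 337 bp wide with the combination and 302.5 bp with OTX015. The median and highest fold enrichment listed for peaks were not higher after co-treatment. The median fold enrichment over background was 3.42 with the combination and 3.54 with OTX015, and the highest was 6.46 with the combination and 9.32 with OTX015. At −log10 q of at least 2, the measure of confidence given by the peak caller, there were 886 peaks (11.5%) with the combination and 231 (5.11%) with OTX015, and at least 5 was reached by 3 peaks in each list. Peaks over 2 kb numbered 99 with the combination and 41 with OTX015.

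The libraries differed in depth as well as in treatment. The background that the peaks' own values imply was 1.47 fragments at each base with the combination and 0.764 with OTX015, a ratio of 1.92, and the weakest peak listed needed 4.76 times background with the combination and 6.54 times with OTX015. The listed fold carries a pseudocount of 1, so the lowest folds given above stand for these unlike enrichments. Folds here and below are therefore not on 1 scale between the lists. When 6.54 times was asked of both lists, 67 peaks of the combination were left on the arm beside all 4522 of OTX015, and the ratio of cover became 0.0364, so the direction given above holds for the lists as deposited and not for a common enrichment. With equal numbers of peaks over both whole lists the ratio was 1.41. Depth and treatment cannot be told apart with 1 library each.

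The arm was less densely marked than the rest of chromosome 8 and far more densely than other chromosomes. The rest of chromosome 8 was covered to 22.4% with the combination and 9.91% with OTX015, a ratio of 2.26. The other chromosomes were covered to 0.627% with the combination and 0.486% with OTX015, a ratio of 1.29. Neighbouring peaks of the arm lay a median 2.26 kb apart with the combination and 4.79 kb apart with OTX015, against 1.27 kb with the combination and 2.50 kb with OTX015 on the rest of chromosome 8. As a check of the cell type, promoters of 12 myeloid marker genes were read. Of these, 8 had a peak with the combination and 7 with OTX015. Over the genome 15.4% of promoters had a peak with the combination and 15% with OTX015. SPI1, MPO, PRTN3, ELANE, LYZ and AZU1 had one in both lists. CEBPE and CSF1R had one with the combination only, and CEBPA with OTX015 only. CD33, IRF8 and FLI1 had none in either list. No promoter of 3 erythroid and 4 epithelial markers had a peak in either list, whereas CD79A of B cells had one in both and CD3D of T cells had one with the combination.

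**Figure D1:**
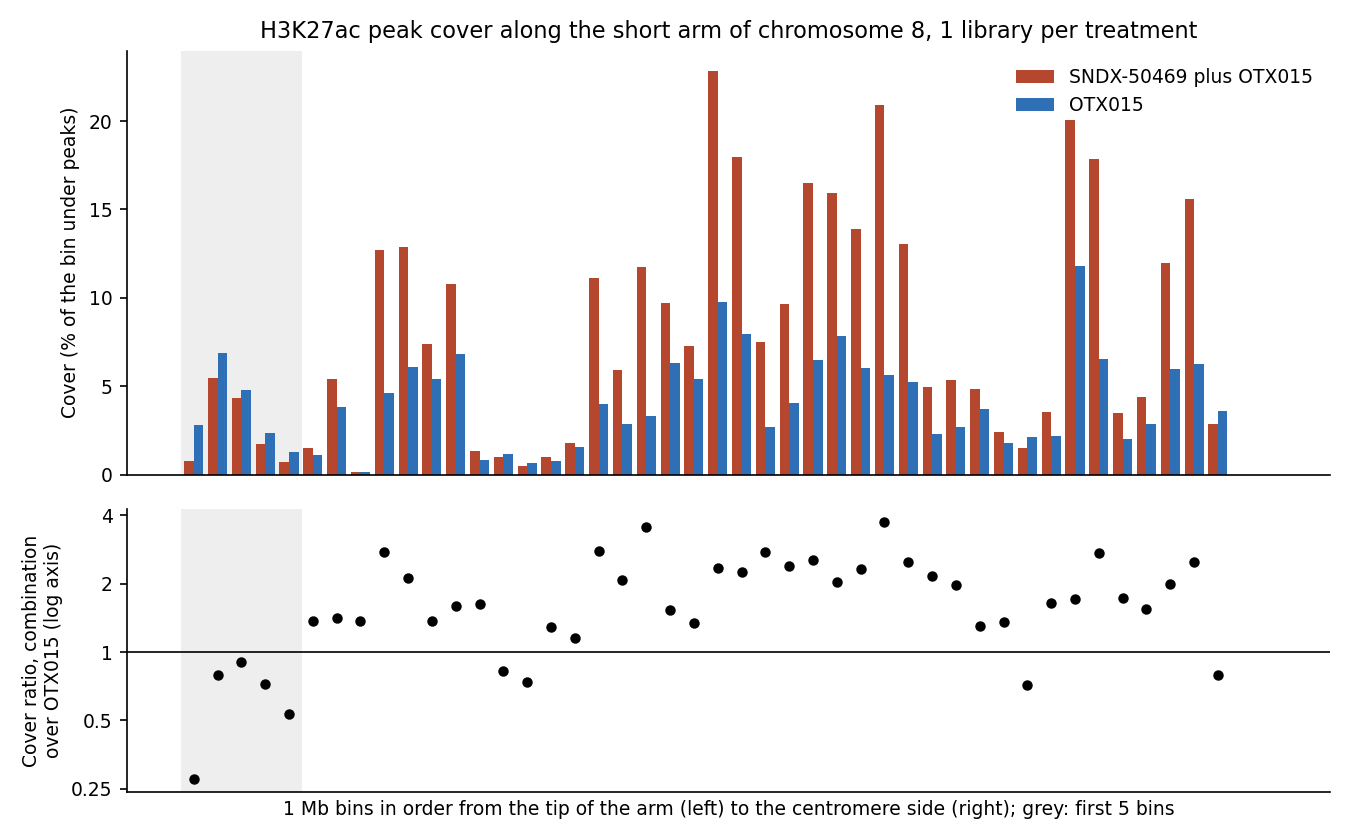
Percent of each 1 Mb bin lying under H3K27ac peaks with SNDX-50469 plus OTX015 (red) and OTX015 (blue), and the ratio of the 2 on a log axis, from the tip of the arm at the left to the centromere side at the right. All 5 bins of the shaded first 5 Mb lie below a ratio of 1, the first at 0.276, and 35 of the 44 bins with cover lie above it.

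Cover was uneven along the arm. Of 46 bins of 1 Mb, 44 held peaks and 35 were covered more with the combination, against 51.4% of all bins with cover in the genome. With equal numbers of peaks 23 bins were covered more and 21 less. Cover of single bins ranged from 0.166% to 22.8% with the combination (median 5.68%) and from 0.121% to 11.8% with OTX015 (median 3.76%). The bins ranked much alike in the lists, with a Spearman correlation of 0.885 and a Pearson correlation of 0.867 over 44 bins of the same 2 libraries. More than 10% was covered in 16 bins with the combination and in 1 bin with OTX015, the bin from 37 to 38 Mb that holds ERLIN2, ADGRA2 and RAB11FIP1.

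Cover tended to rise with the number of protein-coding 5′ ends of a bin. Over 44 bins the Spearman correlation was 0.558 with the combination and 0.545 with OTX015, and the Pearson correlation 0.322 and 0.243. The bin from 22 to 23 Mb, which holds BIN3, PDLIM2 and RHOBTB2 among 24 protein-coding genes, was covered to 22.8% with the combination and 9.74% with OTX015. The bin from 37 to 38 Mb was covered to 20.1% with the combination and 11.8% with OTX015. A gene-poor exception lay from 29 to 30 Mb, where only KIF13B and DUSP4 have their 5′ ends, and this bin was covered to 20.9% with the combination and 5.61% with OTX015. Its ratio of 3.73 was the highest of the 44 bins. The bin from 7 to 8 Mb, with 41 protein-coding 5′ ends, had the least cover of the 44. It was covered to 0.166% with the combination and 0.121% with OTX015. In the 9 bins with over 10 protein-coding 5′ ends the median cover was 15.6% with the combination and 6.51% with OTX015, and in the 5 bins with none it was 1.71% with the combination and 1.77% with OTX015. The ratio of pooled cover was 2.30 in the bins with over 10 and 1.33 in the bins with none.

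Longer stretches differed in cover, with limits set by hand and with earlier results of these data known. From 17 to 31 Mb, which takes in the NAT, LPL, TRAIL receptor and PTK2B regions, 13.1% was covered with the combination and 5.54% with OTX015, a ratio of 2.37, and 3852 peaks of the combination and 1883 of OTX015 lay there. Its bins were uneven, from 5.92% to 22.8% with the combination and from 2.71% to 9.74% with OTX015. The FGFR1 region from 37 to 39 Mb was covered to 19.0% with the combination and 9.14% with OTX015, and the KAT6A and IKBKB region from 41 to 43 Mb to 13.8% with the combination and 6.13% with OTX015. By contrast the stretch from 12 to 17 Mb, where DLC1, SGCZ, TUSC3 and MSR1 lie, was covered to 1.11% with the combination and 0.990% with OTX015. Outside the first 5 Mb, 4 bins were covered less with the combination, those from 13 to 14, 14 to 15, 35 to 36 and 43 to 44 Mb, with ratios between 0.717 and 0.823.

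The tip of the arm was taken as its first 5 Mb, with earlier results of these data known. This tip had less cover with the combination in the deposited lists, unlike the rest. There 306 peaks covered 129.6 kb (2.59%) with the combination and 423 peaks covered 181.5 kb (3.63%) with OTX015, a ratio of 0.714. Over the remaining 40.2 Mb, 7415 peaks covered 8.44% with the combination and 4099 peaks covered 4.08% with OTX015, a ratio of 2.07. All 5 bins of the tip had less cover with the combination. The first held 28 peaks over 7.81 kb with the combination and 70 peaks over 28.3 kb with OTX015, and the second 54.4 kb with the combination and 68.8 kb with OTX015. The ratio in the tip stayed below 1 with equal numbers of peaks (0.483) and with merged peaks (0.745), and became 1.07 once −log10 q had to reach 2, which left 32 peaks with the combination and 19 with OTX015. At the common enrichment the contrast with the rest was turned, at a ratio of 0.0903 in the tip and 0.0305 in the rest of the arm. A low ratio at the start of a chromosome was not limited to chromosome 8. Of 16 other chromosomes with cover in their first 5 Mb, 11 had a lower ratio there than over the rest, as on chromosome 5 (0.610 against 1.25), while chromosome 20 ran the other way (2.14 against 1.07).

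Of 11 protein-coding genes with their 5′ end in the tip, 3 loci were covered more and 7 less with the combination, a locus being the gene body with 10 kb either side. DLGAP2, which encodes a postsynaptic scaffold protein, held 29 peaks over 7.86 kb with the combination and 112 peaks over 41.7 kb with OTX015. This was the widest gap in cover of any locus of the arm that had less with the combination. Once −log10 q had to reach 2, the difference at DLGAP2 was −0.72 kb. CSMD1, a very long gene for a membrane protein that regulates complement, had 26.8 kb under 90 peaks with the combination and 37.5 kb under 116 peaks with OTX015, though the difference was 0.453 kb once −log10 q had to reach 2. Nearer the end, FBXO25, an F-box component of a ubiquitin ligase, had 1.60 kb with the combination and 5.45 kb with OTX015. TDRP, named for a role in testis development, had 0.567 kb with the combination and 5.00 kb with OTX015. ERICH1 had 2.50 kb with the combination and 4.53 kb with OTX015, and ZNF596, a zinc finger gene, 0.122 kb with the combination and 0.619 kb with OTX015. Once −log10 q had to reach 2, the difference was 0 kb at FBXO25 and −0.218 kb at TDRP. It turned to 0.124 kb at ERICH1 and 0.122 kb at ZNF596. MYOM2, a protein of the sarcomere M-band, was close to even at 8.21 kb with the combination and 8.80 kb with OTX015, with 24 peaks in each list, and its sign turned in the gene body alone and with 50 kb flanks. The olfactory receptor gene OR4F21 had no peak in either.

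The 3 loci of the tip with more cover lay side by side, and the direction of each depended on the setting. KBTBD11, a Kelch repeat and BTB protein, had 22.9 kb with the combination and 13.3 kb with OTX015. Within 10 kb of its 5′ end the cover was 7.63 kb with the combination and 0.458 kb with OTX015. ARHGEF10, a guanine nucleotide exchange factor, had 32.6 kb with the combination and 28.6 kb with OTX015, and CLN8, an endoplasmic reticulum protein mutated in a form of ceroid lipofuscinosis, had 6.61 kb with the combination and 5.42 kb with OTX015. With equal numbers of peaks both turned, to −1.58 kb at ARHGEF10 and −0.248 kb at CLN8, and ARHGEF10 also did so in the gene body alone (−1.68 kb) and once −log10 q had to reach 2 (−1.49 kb). At the common enrichment all 3 turned, to −4.25 kb at KBTBD11, −21.3 kb at ARHGEF10 and −5.415 kb at CLN8. In both lists a broad peak lay on each side of the KBTBD11 5′ end and over 10 kb from it. The distances were 23.2 and 27.2 kb with the combination and 20.6 and 26.3 kb with OTX015. The peak within ARHGEF10 spanned chr8:1943465-1950459 with the combination and chr8:1943326-1953101 with OTX015. The KBTBD11 peak, which ran past the far end of the gene, spanned chr8:2000847-2009934 with the combination and chr8:1999988-2010636 with OTX015 (GRCh38). The ARHGEF10 peak was 6.995 kb wide with the combination and 9.78 kb with OTX015, and the KBTBD11 peak 9.09 kb with the combination and 10.6 kb with OTX015. The OTX015 peaks overlapped 3 and 2 combination peaks there. Cover of the whole ARHGEF10 stretch was 8.44 kb with the combination and 9.78 kb with OTX015. For the KBTBD11 stretch it was 10.1 kb with the combination and 10.6 kb with OTX015. Promoters, the 5′ end with 1 kb either side, had a peak at TDRP, CLN8, KBTBD11 and MYOM2 with the combination and at none of the 11 genes with OTX015.

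The difference in the tip varied with distance to genes. Beyond 50 kb from any protein-coding 5′ end the tip had 62.7 kb under peaks with the combination and 117 kb with OTX015, a ratio of 0.537. At 10 to 50 kb it had 49.6 kb with the combination and 54.4 kb with OTX015. At 1 to 10 kb it had 16.7 kb with the combination and 10.4 kb with OTX015, and within 1 kb 0.613 kb with the combination and none with OTX015. In the rest of the arm the ratio lay between 1.75 and 2.38 in every class.

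**Figure D2:**
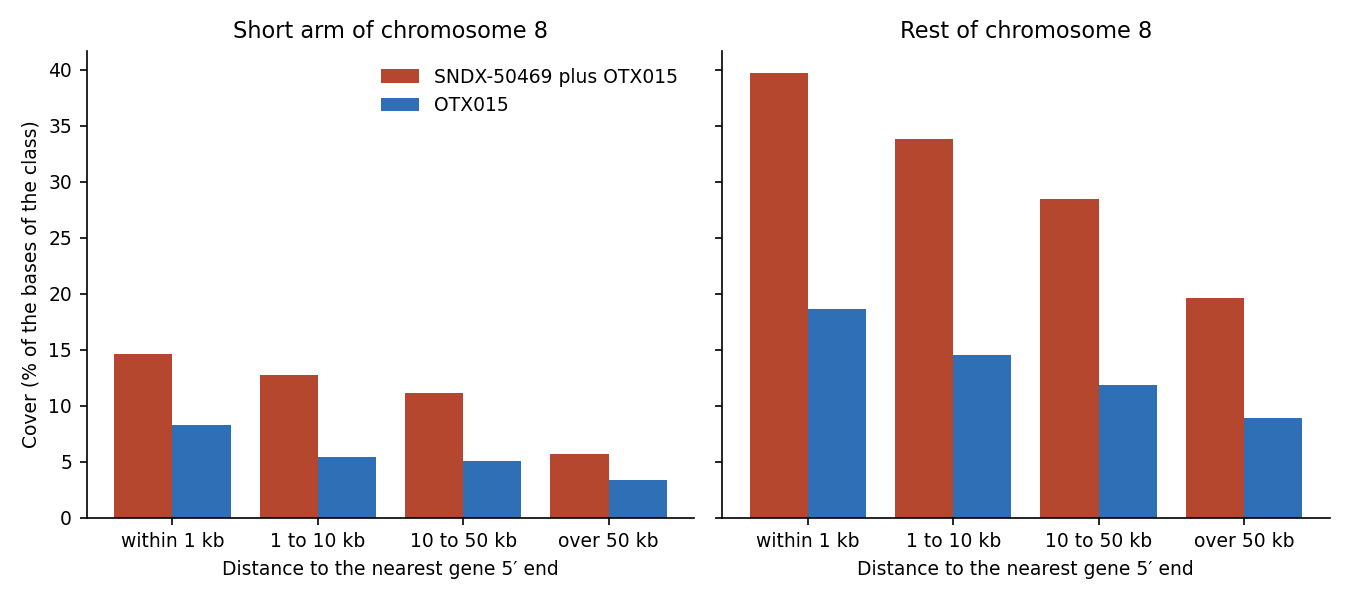
Percent of the bases in each class of distance to the nearest protein-coding 5′ end that lay under H3K27ac peaks, on the short arm (left) and the rest of chromosome 8 (right), with SNDX-50469 plus OTX015 in red and OTX015 in blue. On the arm the cover within 1 kb was 14.6% with the combination and 8.29% with OTX015, and beyond 50 kb it was 5.66% with the combination and 3.35% with OTX015.

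Over the whole arm most peaks lay far from gene starts. Of the combination peaks 173 (2.24%, 95% Wilson interval 1.93 to 2.60%) lay within 1 kb of a protein-coding 5′ end, and of the OTX015 peaks 93 (2.06%, 1.68 to 2.51%), where 1.16% of the arm's bases lie. These intervals cover counting over peaks of 1 library only. Beyond 50 kb lay 3956 peaks (51.2%, 50.1 to 52.4%) with the combination and 2616 (57.9%, 56.4 to 59.3%) with OTX015, against 64.6% of the bases. The median distance was 52.3 kb with the combination and 67.7 kb with OTX015, against 96.3 kb for the bases of the arm. Cover was densest at gene starts in both lists. Within 1 kb, 14.6% of bases were covered with the combination and 8.29% with OTX015; at 1 to 10 kb, 12.8% with the combination and 5.45% with OTX015; and beyond 50 kb, 5.66% with the combination and 3.35% with OTX015. The ratio was highest at 1 to 10 kb (2.35) and 10 to 50 kb (2.19), with 1.77 within 1 kb and 1.69 beyond 50 kb.

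Cover fell with distance from gene starts on the other side of the centromere too. On the rest of chromosome 8, 39.7% of bases within 1 kb were covered with the combination and 18.6% with OTX015, and 19.6% with the combination and 8.89% with OTX015 beyond 50 kb. Peaks near starts were the more confident ones of the arm, since 19.1% with the combination and 18.3% with OTX015 reached −log10 q of 2 within 1 kb, against 9.96% with the combination and 4.24% with OTX015 beyond 50 kb. Bodies of protein-coding genes, which make up 45.0% of the arm, were covered to 9.15% with the combination and 4.64% with OTX015, and the bases outside them to 6.68% with the combination and 3.54% with OTX015. Genes thus held 52.8% of the cover with the combination and 51.7% with OTX015.

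**Figure D3:**
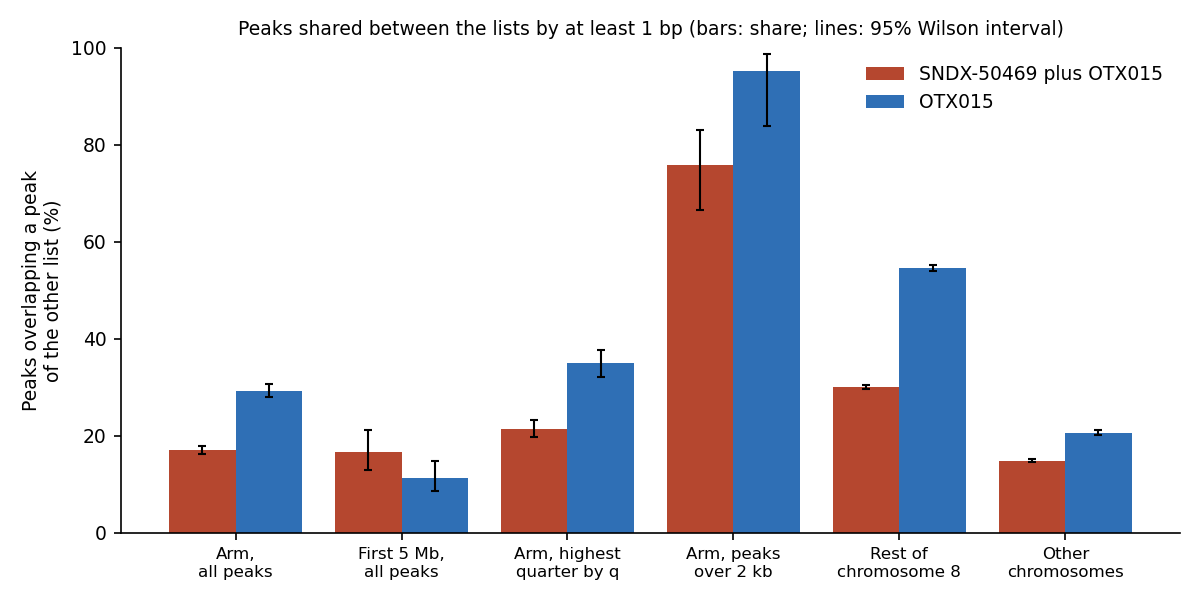
Share of the peaks of each list that overlapped a peak of the other list by at least 1 bp, for SNDX-50469 plus OTX015 (red) and OTX015 (blue), with 95% Wilson intervals as lines. On the arm the share was 17.1% with the combination and 29.3% with OTX015, and among peaks over 2 kb it was 75.8% with the combination and 95.1% with OTX015.

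Most peaks of the arm were found in 1 list alone. Of the combination peaks 1322 (17.1%, 16.3 to 18.0%) overlapped an OTX015 peak, and of the OTX015 peaks 1326 (29.3%, 28.0 to 30.7%) overlapped a combination peak. Under peaks of both lists lay 442 kb, or 12.5% of the combination cover and 24.2% of the OTX015 cover. On the rest of chromosome 8, 30.1% of combination peaks and 54.6% of OTX015 peaks overlapped. On other chromosomes 14.9% of combination peaks and 20.6% of OTX015 peaks did. Peaks per Mb numbered 171, 338 and 15.2 with the combination on the arm, the rest of chromosome 8 and other chromosomes. With OTX015 they numbered 100, 197 and 10.7. Denser peaks overlap more often by position alone, which was not worked out, so these shares do not rank how alike the lists are. In the tip the order of the shares was turned, with 16.7% (12.9 to 21.3%) of combination peaks and 11.3% (8.67 to 14.7%) of OTX015 peaks.

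Shared peaks tended to be broader. A wider peak also overlaps another more often by position alone, which was not worked out. Overlapping peaks had a median width of 515.5 bp with the combination and 417 bp with OTX015, against 310 bp with the combination and 261.5 bp with OTX015 for the others. Among peaks over 2 kb, 75 of 99 of the combination (75.8%, 66.5 to 83.1%) and 39 of 41 of OTX015 (95.1%, 83.9 to 98.7%) were shared. There were 22 stretches of the arm that held a peak over 2 kb in both lists. These had 114 kb under peaks with the combination and 104 kb with OTX015, a ratio of 1.098, and 14 of the 22 had more with the combination and 8 less. Such stretches were chosen for a wide peak in both lists, so like cover follows in part from the choice. Their ratio is thus not comparable with that of the whole arm. Their median fold enrichment was 4.06 with the combination and 4.44 with OTX015. The same kind of stretch numbered 175 on the rest of chromosome 8, with a ratio of 1.21, and 431 on other chromosomes, with a ratio of 0.992.

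Peaks at ERLIN2 and PRAG1 were among the 3 highest by −log10 q in both lists. At ERLIN2, an endoplasmic reticulum protein at the edge of the FGFR1 region, a peak at the 5′ end spanned chr8:37736669-37739329 with the combination, with a fold enrichment of 5.63 and −log10 q of 5.68. With OTX015 it spanned chr8:37736764-37737557, with a fold of 9.32 and −log10 q of 12.2, the highest of either list on the arm. Within PRAG1, a pseudokinase gene, the peak spanned chr8:8344134-8349229 with the combination, at a fold of 6.46, and chr8:8344079-8350201 with OTX015, at a fold of 6.78. An intergenic peak 682 kb from the 5′ end of MYOM2 had a fold of 4.16 with the combination and 7.13 with OTX015, where it spanned chr8:2726935-2727929. The peak at the 5′ end of PCM1, a centriolar satellite protein, had a fold of 3.80 with the combination and 5.87 with OTX015. A peak within ASH2L reached −log10 q of 5.16 with the combination and 1.89 with OTX015. Some strong peaks were in 1 list alone, such as a peak of 112 bp near NKX2-6 at a fold of 5.12 with the combination, and a peak of 136 bp at the edge of the stretch around FAM86B2 at a fold of 5.19 with OTX015. The widest peak lay 148 kb from the 5′ end of MSRA, a methionine sulfoxide reductase, and measured 9626 bp with the combination and 11318 bp with OTX015.

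**Figure D4:**
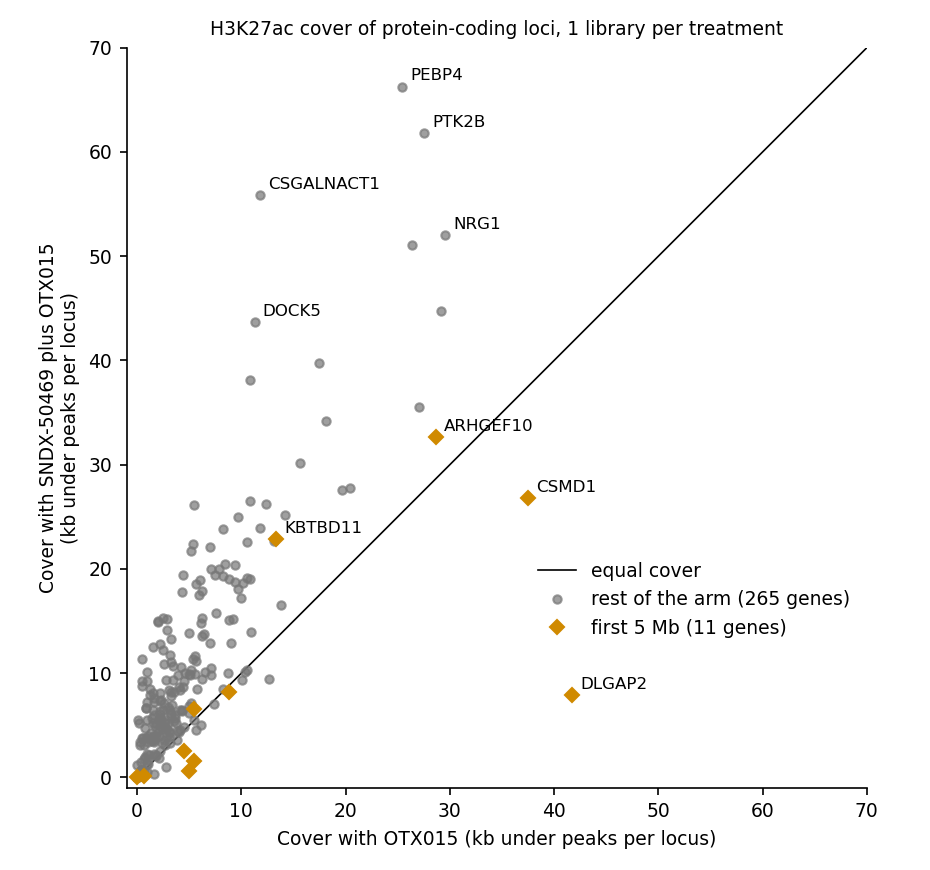
Cover of each protein-coding locus of the arm with SNDX-50469 plus OTX015 (vertical) against OTX015 (horizontal), in kb under H3K27ac peaks, with the line of equal cover. Loci of the first 5 Mb are orange diamonds, among which DLGAP2 (7.86 kb with the combination and 41.7 kb with OTX015) and CSMD1 lie below the line, while PEBP4, PTK2B and CSGALNACT1 stand above it.

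Of 292 protein-coding genes of the arm, 276 had a single strand and were used. Peaks fell in 224 of their loci, and 203 of these (90.6%) were covered more with the combination, against 59.4% of loci with cover over the genome. The other 21 (9.38%) were covered less, against 40.6%. On the rest of chromosome 8, 394 of 404 loci were covered more. The median difference over the arm was 4.11 kb. Neighbouring loci can share peaks, so these counts are not independent. Promoters had a peak in 147 genes (53.3%) with the combination, against 15.4% over the genome, and in 86 genes (31.2%) with OTX015, against 15% over the genome. Both lists marked 69 of these promoters, the combination alone 78 and OTX015 alone 17, among them KAT6A, TNKS, LPL and LONRF1. On the rest of chromosome 8, promoters had a peak in 360 of 404 genes with the combination and in 235 with OTX015.

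Long genes in the middle of the arm had the widest gains in kb, a measure that grows with the length of the locus. PEBP4, a phosphatidylethanolamine-binding protein, had 66.3 kb with the combination and 25.4 kb with OTX015. CSGALNACT1, which starts chondroitin sulphate chains, had 55.9 kb under 129 peaks with the combination and 11.8 kb under 40 peaks with OTX015. PTK2B, the FAK family kinase Pyk2 of haematopoietic and neural cells, had 61.8 kb with the combination and 27.5 kb with OTX015. These were the 3 largest differences among the 276 loci. DOCK5, an activator of Rac, had 43.7 kb with the combination and 11.3 kb with OTX015. KIF13B, a kinesin, had 38.1 kb with the combination and 10.8 kb with OTX015, and PSD3, an exchange factor of Arf6, had 39.7 kb with the combination and 17.5 kb with OTX015. DPYSL2, a neuronal microtubule regulator, had 51.1 kb with the combination and 26.4 kb with OTX015. NRG1, a ligand of ErbB receptors, had 52.0 kb with the combination and 29.6 kb with OTX015. With equal numbers of peaks several of these differences shrank by over 1.5 times, to 0.510 kb at NRG1, 6.53 kb at PSD3, 18.0 kb at KIF13B, 25.9 kb at CSGALNACT1 and 27.3 kb at PEBP4. As a share of the locus, NRG1 had 4.51% with the combination and 2.56% with OTX015, and PSD3 had 6.88% and 3.02%. Both lay below the medians over all 276 loci, 10.4% with the combination and 4.14% with OTX015. The other loci named here lay above them, apart from CSGALNACT1 with OTX015 (3.16%).

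Losses outside the tip were small. UNC5D, a netrin receptor, had 9.42 kb with the combination and 12.7 kb with OTX015. NEFL, the light neurofilament chain, had 1.05 kb with the combination and 2.81 kb with OTX015. DEFB1, an epithelial β-defensin, had 0.326 kb with the combination and 1.58 kb with OTX015. PRSS51, a serine protease gene, had 4.56 kb with the combination and 5.64 kb with OTX015, and DLC1, a GTPase-activating protein, had 5.00 kb with the combination and 6.08 kb with OTX015. The sign turned with 50 kb flanks for DEFB1, NEFL and PRSS51, and for UNC5D once −log10 q had to reach 2.

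Within 10 kb of a 5′ end, the most cover stood at BIN3 with the combination and at RAB11FIP1 with OTX015. BIN3, a membrane-curving BAR protein, had 12.7 kb with the combination and 3.92 kb with OTX015. RAB11FIP1, an effector of recycling endosomes, had 12.3 kb with the combination and 7.64 kb with OTX015. CTSB, the lysosomal protease cathepsin B, had 10.9 kb with the combination and 5.83 kb with OTX015. PDLIM2 and its neighbour C8orf58, whose windows share peaks, had 9.90 and 8.04 kb with the combination and 5.27 and 4.42 kb with OTX015. SLC25A37, the mitochondrial iron importer mitoferrin of red cell precursors, had 7.60 kb with the combination and 5.84 kb with OTX015, and SORBS3, an adhesion scaffold, had 5.54 kb with the combination and 5.30 kb with OTX015. The window of MBOAT4, which acylates ghrelin and lies beside LEPROTL1, had 8.10 kb with the combination and 0.202 kb with OTX015.

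**Figure D5:**
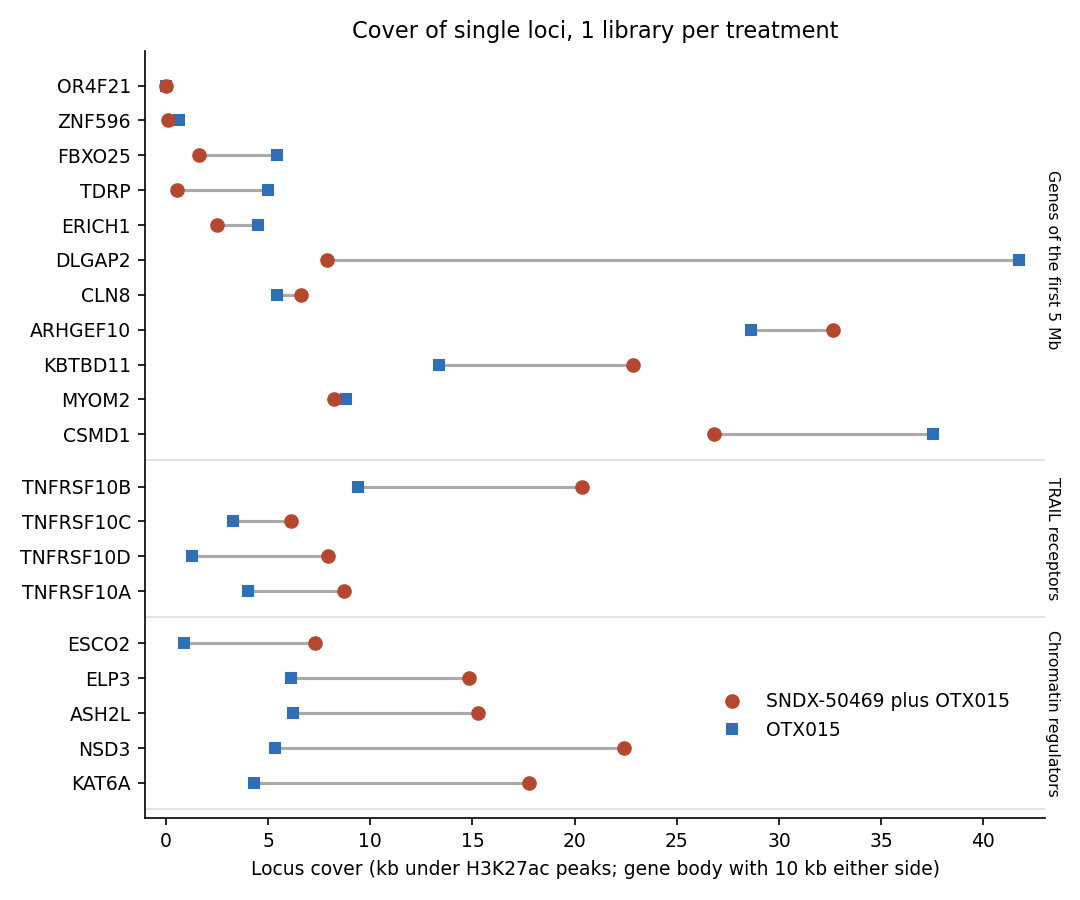
Locus cover in kb under H3K27ac peaks of the genes of the first 5 Mb, the TRAIL receptors and the chromatin regulators of the arm, with SNDX-50469 plus OTX015 as red circles and OTX015 as blue squares, 1 library each. All 4 TRAIL receptors and all 5 chromatin regulators have the red circle on the right, while 7 of the 11 genes of the tip have it on the left.

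The TRAIL receptors form a cluster of 4 genes with 5′ ends from 23.07 to 23.23 Mb, of which TNFRSF10A (DR4) and TNFRSF10B (DR5) pass on the death signal and TNFRSF10C and TNFRSF10D are decoys. All 4 loci were covered more with the combination, as were 93.5% of loci with cover outside the tip. TNFRSF10B had 20.3 kb with the combination and 9.38 kb with OTX015. Within 10 kb of its 5′ end lay 11.2 kb with the combination and 5.95 kb with OTX015. TNFRSF10A had 8.69 kb with the combination and 4.04 kb with OTX015. Of the decoys, TNFRSF10C had 6.13 kb with the combination and 3.28 kb with OTX015, and TNFRSF10D had 7.93 kb with the combination and 1.26 kb with OTX015. In the gene body alone, the difference at TNFRSF10C had the opposite sign. Promoters of TNFRSF10B and TNFRSF10D had peaks in both lists, those of TNFRSF10A and TNFRSF10C with the combination only.

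All 5 chromatin regulators listed were covered more with the combination, near the 93.5% of loci outside the tip. KAT6A, the MYST histone acetyltransferase MOZ, had 17.8 kb under 38 peaks with the combination and 4.33 kb under 9 peaks with OTX015, though its promoter had a peak only with OTX015, and its difference was −0.752 kb once −log10 q had to reach 2. ASH2L, a core subunit of the MLL methyltransferase complexes, had 15.3 kb with the combination and 6.24 kb with OTX015. NSD3, an H3K36 methyltransferase, had 22.4 kb with the combination and 5.36 kb with OTX015, while within 10 kb of its 5′ end it had 1.63 kb with the combination and 2.03 kb with OTX015. ELP3, the catalytic subunit of Elongator, had 14.8 kb with the combination and 6.13 kb with OTX015. ESCO2, the acetyltransferase of cohesin, had 7.27 kb with the combination and 0.902 kb with OTX015.

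In the FGFR1 region, which is amplified in some breast and lung cancers, all 19 listed loci were covered more with the combination, near the 93.5% of loci outside the tip. Promoters had a peak in 17 with the combination and in 11 with OTX015, against 53.3% with the combination and 31.2% with OTX015 over the arm. A median 24.4% of the locus was covered with the combination and 8.25% with OTX015, against medians of 10.4% with the combination and 4.14% with OTX015 over all 276 loci. FGFR1 itself, a receptor tyrosine kinase, had 18.9 kb with the combination and 5.99 kb with OTX015. ADGRA2, an adhesion GPCR of brain vessels, had 35.6 kb with the combination and 27.02 kb with OTX015. RAB11FIP1 had 27.6 kb with the combination and 19.6 kb with OTX015, and DDHD2, a lipase, had 10.1 kb with the combination and 0.955 kb with OTX015.

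The 19 innate, lysosomal and leukocyte genes were likewise all covered more with the combination, near the share outside the tip, and promoters had a peak in 10 with the combination (52.6%, against 53.3% over the arm) and in 8 with OTX015 (42.1%, against 31.2%). MFHAS1, a regulator of Toll-like receptor signalling, had 21.7 kb with the combination and 5.17 kb with OTX015. IKBKB, the NF-κB activating kinase, had 17.9 kb with the combination and 6.26 kb with OTX015, yet within 10 kb of its 5′ end it had 1.499 kb with the combination and 3.14 kb with OTX015. SLC39A14, a zinc and iron importer, had 19.5 kb with the combination and 7.47 kb with OTX015, and its difference turned to −1.02 kb once −log10 q had to reach 2. Of 36 genes of general cell maintenance all were covered more with the combination, beside 93.5% of loci outside the tip. Their promoters had a peak in 30 with the combination (83.3%, against 53.3% over the arm) and in 17 with OTX015 (47.2%, against 31.2%). PPP2R2A, a regulatory subunit of protein phosphatase 2A, had 14.9 kb with the combination and 2.04 kb with OTX015. LEPROTL1 had 19.4 kb with the combination and 4.37 kb with OTX015, and ERI1, an exonuclease of histone mRNA, 20.0 kb with the combination and 7.09 kb with OTX015.

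Genes used by other tissues held peaks as well, as did 224 of the 276 loci of the arm. All 28 listed had cover, with 21 (75%) more and 7 less with the combination, against 90.6% more over the arm. DLGAP2 of the tip was among the 7. The median share of the locus covered was 12.4% with the combination and 4.61% with OTX015. Over all 276 loci it was 10.4% with the combination and 4.14% with OTX015. For the maintenance genes it was 14.3% with the combination and 4.98% with OTX015. PLAT, tissue plasminogen activator, had 15.3 kb with the combination and 2.52 kb with OTX015. SLC18A1, a vesicular monoamine transporter of endocrine cells, had 12.5 kb with the combination and 1.53 kb with OTX015. Of 15 candidate tumour suppressors, 11 (73.3%) were covered more with the combination, against 90.6% of loci with cover over the arm. The 4 covered less were CSMD1 and FBXO25, both in the tip, DLC1 and TUSC3. RHOBTB2 had 26.1 kb with the combination and 5.49 kb with OTX015. WRN, the helicase of Werner syndrome, had 15.02 kb with the combination and 1.98 kb with OTX015, and MTUS1, a microtubule-associated protein, 20.0 kb with the combination and 7.89 kb with OTX015, a difference that was 2.30 kb with equal numbers of peaks.

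The defensins were the barest group. Of 16 listed genes 7 had cover, with 4 (57.1%) more and 3 less with the combination, against 90.6% more over the arm. DEFA4, an α-defensin of neutrophil granules, had 3.82 kb with the combination and 0.823 kb with OTX015, and no other defensin passed 2.5 kb in either list. DEFA1, DEFA1B and DEFA3, the other neutrophil defensins, had no peak. They lie beside a stretch of 1.18 Mb, chr8:7059307-8235549, with no peak in either list, which holds 42 protein-coding 5′ ends, most of them FAM90A, USP17L and β-defensin genes. Many of these are near-identical copies, so an absence of peaks there is uncertain. The same limit applies to DEFA1, DEFA1B and DEFA3. In all, 11 stretches of at least 100 kb had no peak in either list and made up 3.998 Mb (8.84% of the arm). The largest ran from chr8:43932272 to the arm limit, 1.27 Mb with no protein-coding gene start, and others held OR4F21 at the tip, FAM86B1, DEFB130A and FAM86B2, or lay beside ADAM18. Of the 276 loci, 52 had no peak in either list.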

How the data were processed

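H3K27ac ChIP libraries of MOLM13 cells were used, 1 per treatment, with no replicate. Per the submitters' processing notes, Bowtie 1.1.2 aligned the reads to GRCh38 after bcl2fastq 2.17 and Trimmomatic 0.33, and MACS2 2.1.0 called peaks in broad mode. Each peak was deposited by the authors with 4 values, namely its score, its fold enrichment, its −log10 p-value and its −log10 q-value. The lists give no read numbers, so the background was solved from the lowest fold and −log10 p of each list under a Poisson model with a pseudocount of 1, which matched the −log10 p of 99.6% of combination and 99.7% of OTX015 peaks of the arm within 0.1. As the background was constant, copy number was not corrected for.

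Cover is the union of peaks. Gene positions came from RefSeq on GRCh38.p14, with strands from GENCODE v44 matched by symbol, and the outermost base of a gene's record was taken as its 5′ end. Peaks overlap from 1 bp. No test was made between treatments, and shares carry 95% Wilson intervals. The members, gene lists and rules were chosen with earlier results of these data known. Named genes are all those of the first 5 Mb, all TRAIL receptors and chromatin regulators, the 4 members that differed most in every other list, the largest gains and losses, the most covered 5′ windows, and those nearest the strongest and widest peaks and the widest empty stretches, of which the text gives the most part. Others named as examples (SLC18A1, DUSP4 and genes that place a bin) were chosen after their values were seen. Alternatives were stricter peaks, equal numbers of peaks, a common enrichment, merged peaks, other overlaps, windows, flanks and bins, and the arm without either end. On simulated peak lists each of 5 measures was right in 100 of 100 runs. Scripts ran in Python 3.11.15 (matplotlib 3.10.9, statsmodels 0.14.6, scipy 1.17.1, pandas 2.3.3 and numpy 2.4.6).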

Additional observations from a re-analysis of the deposited data

How the results depend on the processing

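With 1 library per treatment no replicate could be left out and no depth beyond the solved background was known. No paired analysis was possible because each treatment has 1 library and the result comes from no test. Leaving out the last 2 Mb of the arm changed no count or ratio by more than its counting error or 1.5 times, and leaving out the first 5 Mb moved only the share of OTX015 peaks that overlap, to 31.2%. Where −log10 q had to reach 2 the ratio of cover was 3.22 and of peak number 3.84, the overlapping share was 4.18% with the combination and 14.3% with OTX015, the share within 1 kb of a 5′ end 3.72% with the combination and 7.36% with OTX015, promoters with a peak numbered 37 with the combination and 19 with OTX015, 33 loci were covered less, and the ratio of the first 5 Mb turned to 1.07. With −log10 q of at least 5, 3 peaks were left in each list, a ratio of number of 1 and of cover of 1.17. Of these 66.7% overlapped and 33.3% lay within 1 kb in either list, 1 promoter had a peak in either list, 3 loci were covered more and 1 less, 2 bins were covered more, and the ratio of the first 5 Mb was 0. With equal numbers of peaks the ratio of number was 1.12, the overlapping share 19.1% with the combination and 21.7% with OTX015, 55 loci were covered less, and 23 bins were covered more. The common enrichment of 6.54 times background gave a ratio of cover of 0.0364, of number of 0.0148 and of cover in the first 5 Mb of 0.0903. Under it the overlapping share was 28.4% with the combination and 0.464% with OTX015, 4.48% of combination peaks lay within 1 kb, 3 promoters had a combination peak, and 1 locus was covered more and 222 less, with 0 bins covered more. It asks more of the combination list alone, so fewer of its peaks enter by construction. Merging peaks within 1 kb gave overlapping shares of 20.2% with the combination and 32.1% with OTX015. Asking for 50% of the peak gave 7.43% with the combination and 17.03% with OTX015, and 50% of both peaks 4.05% with the combination and 6.92% with OTX015. A window of 2.5 kb held 4.90% of combination and 3.98% of OTX015 peaks. With 50 kb flanks 13 loci were covered less, and 69 bins of 0.5 Mb and 19 bins of 2 Mb were covered more. Of 73 named loci, 29 differed by at least 10 kb and 1.5 times, and none of these turned with equal numbers of peaks, merged peaks, the gene body alone or 50 kb flanks. With equal numbers of peaks the difference nonetheless shrank by over 1.5 times at 12 of the 29, most at NRG1 (0.510 kb). With −log10 q of at least 2, SLC39A14 (−1.02 kb) and KAT6A (−0.752 kb) turned, and with at least 5, PRAG1 (−1.03 kb). Under the common enrichment 27 of the 29 turned, namely PRAG1 (−13.0 kb), MFHAS1 (−5.17 kb), ERI1 (−7.09 kb), MTUS1 (−7.89 kb), PCM1 (−2.22 kb), PSD3 (−17.3 kb), CSGALNACT1 (−11.8 kb), SLC39A14 (−7.47 kb), BIN3 (−8.27 kb), PEBP4 (−23.7 kb), RHOBTB2 (−5.08 kb), TNFRSF10B (−6.31 kb), SLC25A37 (−14.2 kb), DOCK5 (−11.3 kb), EBF2 (−9.60 kb), PPP2R2A (−1.77 kb), DPYSL2 (−26.4 kb), PTK2B (−27.4 kb), KIF13B (−10.6 kb), LEPROTL1 (−3.62 kb), WRN (−1.98 kb), NRG1 (−29.5 kb), NSD3 (−5.36 kb), FGFR1 (−5.99 kb), KAT6A (−4.33 kb), PLAT (−2.16 kb) and IKBKB (−6.26 kb). Of 54 named loci that differed by at least 1 kb and 1.5 times, 47 turned under it. Beyond the common enrichment, the cause of these changes was not tested.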
